A study of Mus musculus with 8 samples.

Results

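The genes described here encode translation initiation factors, measured in CD8+ T cells from the spleens of OT-I mice on the C57BL6 background, whose T cells carry a transgenic T cell receptor (TCR) for the ovalbumin peptide SIINFEKL bound to H-2Kb. All groups share that transgene, and the cells came from magnetic purification, so the samples can hold some other spleen cells. Members were the non-control rows of the array whose gene name begins with Eif1 to Eif6, without the Eif2ak kinases, taken at the brightest probe of each gene, which gave 52 of the 28095 genes on the array. The name initiation factor holds for 48 of them: the other 4, Eif2c1 to Eif2c4, are Argonaute genes under an older name, and counts are given with and without them. Eif1ay on the array corresponds to Eif1ax on the X chromosome in RefSeq, and Eif3j to Eif3j1. There were 7 conditions on 8 single-colour Agilent arrays: untreated cells (2 arrays), interferon beta (IFNb) alone for 2 h or 7 h, TCR stimulation with SIINFEKL streptamers for 1 h or 6 h, and 1 h of IFNb with TCR stimulation of 1 h or 6 h (1 array each). The streptamers are clustered H-2Kb molecules loaded with the peptide, which engage the OT-I receptor without antigen presenting cells. No treated condition had a second array, so effects were estimated over arrays that share a treatment. Nothing in the labels says whether the 2 untreated arrays came from separate animals. They were averaged to 1 sample, because at 154 repeated probes they differed by a robust SD of 0.0346 on the log2 scale, against 0.0352 from spot noise alone. By the plain SD they differed by 0.0698, against 0.0557.

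Translation of most mRNAs starts when the cap-binding complex eIF4F (eIF4E, the scaffold eIF4G and the helicase eIF4A) loads an mRNA onto a small ribosomal subunit that carries eIF1, eIF1A, eIF3, eIF5 and the ternary complex of eIF2, GTP and initiator tRNA. The eIF4E-binding proteins compete with eIF4G for eIF4E until mTORC1 phosphorylates them, and eIF2B recharges eIF2 with GTP unless eIF2 is phosphorylated. Resting T cells make little protein, and antigen recognition is known to raise both protein synthesis and the amount of the translation machinery before the first division.

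The arrays were checked first. All 8 arrays held 45018 spots, none of the spots was saturated, and the 75th percentile of the signal ran from 808.8 to 1256. Values below are scaled signals: spot intensity divided by that array's 75th percentile and multiplied by 1500, so a value of 1500 marks the 75th percentile of any array and a total RNA amount per cell is not measured. The interferon-induced Ifit1 went from 561 and 565 in untreated cells to between 99650 and 150200 on the 2 arrays with IFNb alone and the one with IFNb and TCR 1 h; with IFNb and TCR 6 h it read 3569, against 256 with TCR 6 h alone, and all 4 IFNb arrays enter the 1 IFNb effect. The activation marker Il2ra went from 178 and 179 to 21290 and 25570 on the TCR 6 h arrays. CD8 T cell markers were present (Cd8a between 6580 and 55060, above background on 8 of 8 arrays). The scanner files and the deposited value table name the 2 arrays with 1 h TCR in opposite ways, and the naming of the value table is used. Interferon-induced genes were high on the array that this naming gives IFNb and not on the other: Ifit1 read 150200 against 627, Mx1 39000 against 166 and Irf7 28490 against 1709. The 2 arrays with IFNb alone stood apart from the rest: Xist read 6.29 and 5.98 there (not above background) against 603 to 1631 on the other 6, while the Y-linked genes Ddx3y, Kdm5d and Uty were above background on all 8 arrays. The summed signal of 7 B cell markers was 47690 and 40180 on those 2 arrays, 14880 and 14600 in untreated cells and 5212 to 13140 on the TCR arrays; Pax5 was above background on 0 arrays. The sex of the mice is not given in the labels, and the part of these differences in the results was not tested, so counts are also given without the arrays with IFNb alone.

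Initiation factor mRNAs were mostly higher after 6 h of TCR stimulation, with and without IFNb. All 52 genes were above background on all 8 arrays and passed the filter on dim probes. On 44 of the 52, both TCR 6 h arrays lay above the other 6 arrays, on 1 (Eif4e3) both lay below, and on 7 the groups overlapped; over all genes tested, 29.1% lay above and 24.2% below in the same way. In limma's additive fit over 7 samples, with Benjamini-Hochberg adjustment and a threshold of 0.05 (which defines "rose" and "fell" here), 38 of 52 rose, which is 73.1%, against 22.5% of 19606 genes tested. A single member fell (1.92%, against 22.6% of all genes), and 13 did not pass. The median change of the members was 1.53 on the log2 scale, against 0.06 for all genes. Without the Argonautes, 37 of 48 rose, 1 fell and the median was 1.59. Leaving out the 2 arrays with IFNb alone left 20 members higher and 1 lower, all of them among the 39, with a median of 1.52; that fit called 10.1% of all genes higher and 10.6% lower. The scaling mattered for size: with arrays scaled to their medians the members' median was 1.85 (44 rose, 1 fell; 30% and 17.9% of all genes) and that of all genes 0.37, with 62.7% of all called genes higher against 49.9%, and with quantile normalization the members' median was 0.90 (30 rose, 5 fell; 20.6% and 22.2% of all genes) and that of all genes 0.07. The choice of probe mattered too. With the mean of all probes of a gene the members' median was 1.20 and that of all genes 0.04. That fit called 37 members higher and 2 lower (21.9% and 22.4% of all genes). The counts by role given next are to be read against the 22.5% higher and 22.6% lower of the main fit. The arrays measure cell mixtures, so fewer cells of a type and less RNA per cell cannot be told apart. At TCR 6 h the summed B cell markers were at 5212 and 6004 (5 of 6 tested fell), NK cell markers at 40900 and 41630 against 114300 and 117400 untreated (3 of 5 fell), class II presenting cell markers at 10590 and 13630 against 23340 and 22950 (4 of 6 fell), and CD8 T cell markers at 328100 and 348500 against 636300 and 638500 (4 of 8 fell). Nearly all of the NK cell sum was Klrd1, at 113800 and 116900 untreated and 40490 and 41190 at TCR 6 h. Klrb1c went from 130 and 134 to 54.5 and 56.7, and Klrk1 from 301 and 297 to 292 and 297. Klra8 went from 67.6 and 60.8 to 59.5 and 74, and Ncr1 was above background on 2 arrays. The part of these cell types in the result was not tested.

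**Figure D1:**
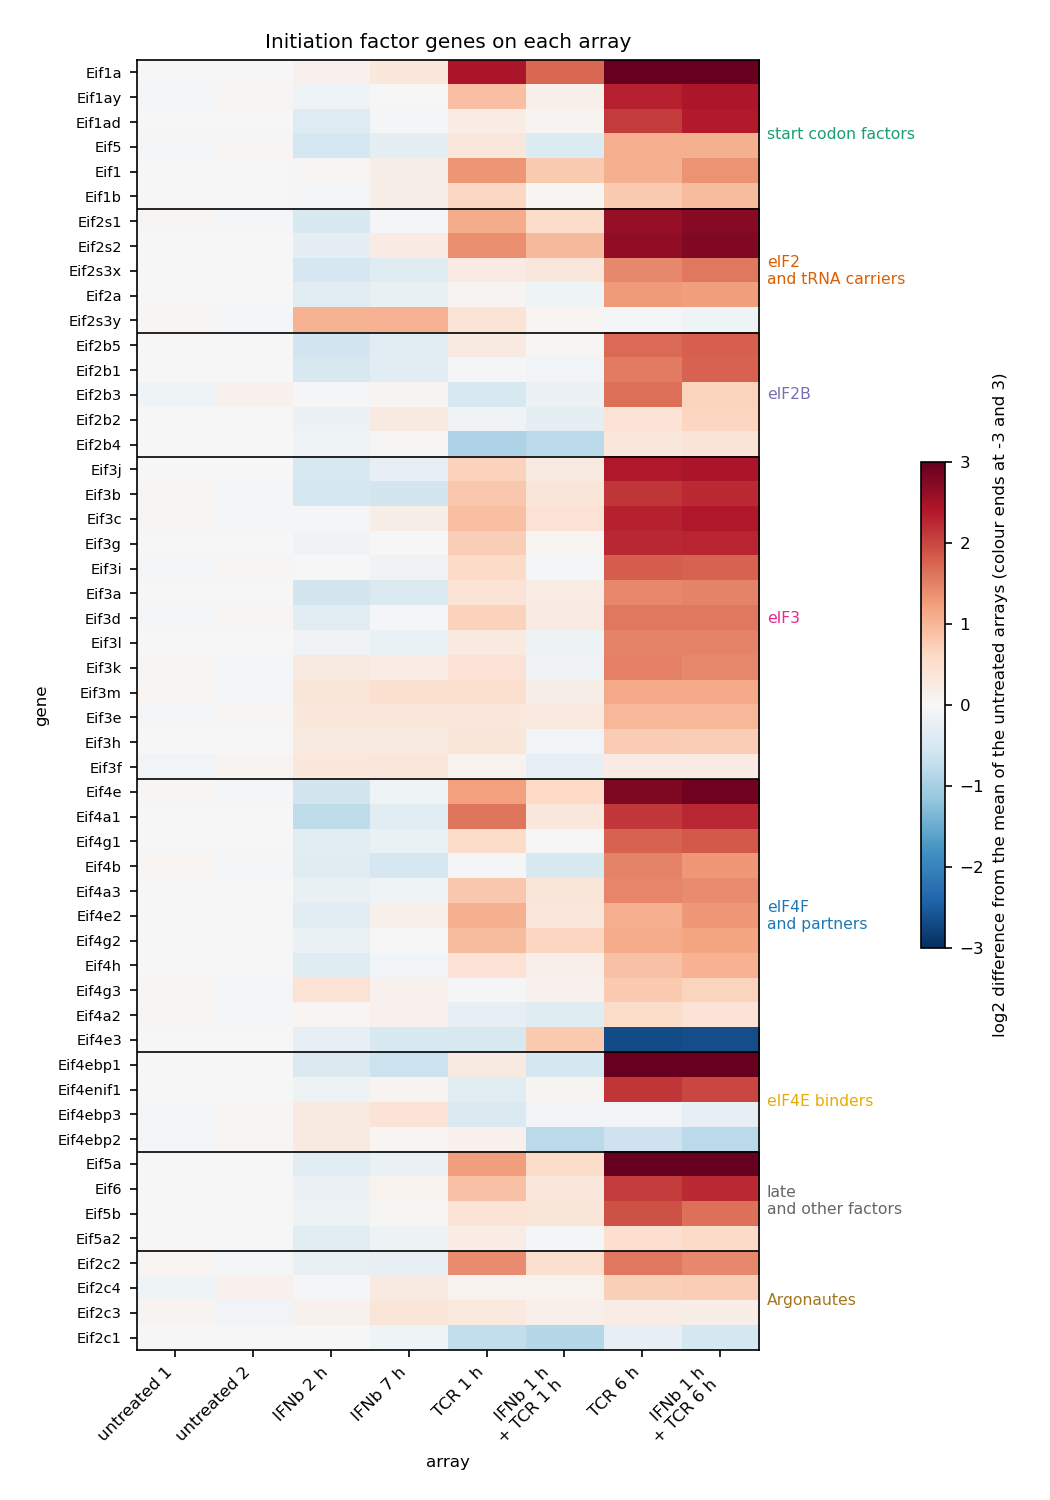
Colour shows the log2 difference of each of 52 genes (rows, grouped by role) from the mean of the untreated arrays on each of the 8 arrays (columns); the scale ends at -3 and 3. The TCR 6 h columns are red for most rows and blue for Eif4e3, and Eif2s3y is the row that is high on both arrays with IFNb alone.

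The regions before the start sites of the members were read for the E-box CACGTG, the core element bound by MYC with MAX and by other factors of that family. Myc itself read 2201 and 2328 in untreated cells, 10270 and 7475 with IFNb for 2 h and 7 h, and between 113300 and 179300 on the 4 TCR arrays. Any part of MYC in the members' changes was not tested. RefSeq's promoter table (GRCm38.p6) matched 41 of the 52 members, with 54 windows of 250 bases before an annotated start. The E-box (a palindrome, so the same on both strands) was in 11 of the 54 windows, and 1978 of all 32851 windows in that table, 6.02%, held it. By gene, 9 of 41 members had it: 7 of the 30 that rose and 2 of the 11 others. The share of all genes that had it was not counted. Of the windows with it, 3 belong to Eif5a, and 2 of these share 1 site. The C/EBP-ATF element TGATGNAA, read on both strands, was in 1 of 54 windows (3.45% of all windows) and the interferon response element in 2 of 54 (2.98% of all windows). A match is a description of these letters, not evidence of binding. The E-boxes of the members are shown with 12 bases on each side, 5′ to 3′ in the direction of the gene, the element in capitals, so that the flanks can be compared.
Eif1b (chr9:120492570-120492599, plus strand, 24 bases before the start): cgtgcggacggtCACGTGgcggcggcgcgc
Eif3f (chr7:108934335-108934364, plus strand, 68 bases before the start): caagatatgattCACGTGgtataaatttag
Eif3k (chr7:28981915-28981944, minus strand, 44 bases before the start): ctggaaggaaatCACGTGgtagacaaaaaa
Eif4a1 (chr11:69672595-69672624, minus strand, 189 bases before the start): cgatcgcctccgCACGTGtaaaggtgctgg
Eif4e (chr3:138527028-138527057, plus strand, 228 bases before the start): ctcgccagcgacCACGTGatcacttttttt
Eif4e (chr3:138527192-138527221, plus strand, 64 bases before the start): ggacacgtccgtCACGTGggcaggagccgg
Eif4g1 (chr16:20672661-20672690, plus strand, 54 bases before the start): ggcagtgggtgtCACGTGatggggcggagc
Eif4h (chr5:134639488-134639517, minus strand, 96 bases before the start): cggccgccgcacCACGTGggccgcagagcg
Eif5a (chr11:69921443-69921472, minus strand, 74 bases before the start): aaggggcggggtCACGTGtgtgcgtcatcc
Eif5a (chr11:69920791-69920820, minus strand, 178 bases before the start): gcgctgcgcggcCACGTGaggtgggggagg
Eif5a2 (chr3:28781123-28781152, plus strand, 142 bases before the start): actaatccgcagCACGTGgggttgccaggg
Eif5a2 (chr3:28781148-28781177, plus strand, 117 bases before the start): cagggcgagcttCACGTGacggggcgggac

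The whole windows of Eif4g1 and Eif4a1, the scaffold and helicase genes of eIF4F with 1 start site each in the table, show where the element lies, 54 bases before the start in Eif4g1 and 189 in Eif4a1 (capitals mark the E-box).
Eif4g1 (chr16:20672477-20672726, plus strand): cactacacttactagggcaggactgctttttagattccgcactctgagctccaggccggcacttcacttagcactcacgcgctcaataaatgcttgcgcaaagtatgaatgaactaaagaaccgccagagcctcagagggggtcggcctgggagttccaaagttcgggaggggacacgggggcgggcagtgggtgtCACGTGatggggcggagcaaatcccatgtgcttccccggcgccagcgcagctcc
Eif4a1 (chr11:69672424-69672673, minus strand): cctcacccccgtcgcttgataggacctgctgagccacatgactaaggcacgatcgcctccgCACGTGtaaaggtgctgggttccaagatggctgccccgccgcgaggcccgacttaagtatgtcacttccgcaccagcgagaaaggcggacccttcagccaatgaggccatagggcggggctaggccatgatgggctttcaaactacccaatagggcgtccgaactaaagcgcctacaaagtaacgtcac

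All 6 start codon factors rose at TCR 6 h (6 of 6, median 1.83). Eif1a encodes eIF1A, which with eIF1 keeps the small subunit open for scanning. Eif1a had a scaled signal of 6792 and 6708 on the untreated arrays, 7412 and 8396 after IFNb for 2 h and 7 h, 36880 after 1 h of TCR stimulation (22340 with IFNb) and 65320 after 6 h (79570 with IFNb). Its change was 3.26 ± 0.30 (log2 ± SE, 7 samples; 9.58-fold, adjusted p = 0.00062), and all 4 TCR arrays lay above the 4 without TCR. Eif1ay, named Eif1ax in RefSeq, encodes the X-linked form of eIF1A. The scaled signal of Eif1ay was 20640 and 21760 in untreated cells, 19370 at 2 h and 21300 at 7 h of IFNb alone, 39410 without and 23570 with IFNb at 1 h of TCR stimulation, and 106500 without and 113900 with IFNb at 6 h. The TCR 6 h change of Eif1ay was 2.38 ± 0.27 (adjusted p = 0.0011), with no overlap between the 6 h arrays and the rest. For Eif1ad the untreated arrays read 5966 and 6142 (scaled signal), the IFNb arrays 4596 (2 h) and 5907 (7 h), the TCR 1 h arrays 7062 and, with IFNb, 6368, and the TCR 6 h arrays 25930 and, with IFNb, 31570. Eif1ad, which encodes a protein with an eIF1A domain, rose by 2.38 ± 0.26, with 1 h arrays close to the untreated ones. Eif5, the gene of the GTPase activator of eIF2, rose by 1.27 ± 0.26. Eif1, which encodes the start codon monitor eIF1, rose by 1.12 ± 0.27 (adjusted p = 0.016), and its close relative Eif1b by 0.81 ± 0.26 (adjusted p = 0.047). Eif1 was already as high at 1 h: 285200 and 196800 on the TCR 1 h arrays and 238100 and 286300 at 6 h, against 112700 to 128100 on the 4 arrays without TCR. Without the array with IFNb and TCR 6 h, the adjusted p was 0.17 for Eif1, 0.12 for Eif5 and 0.33 for Eif1b; that of Eif1b was also 0.09 without TCR 6 h, 0.12 without IFNb 2 h and 0.063 without IFNb 7 h.

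Among the 5 genes of eIF2 and other tRNA carriers, 4 rose and the Y-linked Eif2s3y did not pass. For Eif2s1 the untreated arrays read 10720 and 10190 (scaled signal), the IFNb arrays 7647 (2 h) and 10280 (7 h), the TCR 1 h arrays 22630 and, with IFNb, 15390, and the TCR 6 h arrays 64360 and, with IFNb, 69040. Eif2s1 encodes the alpha subunit, the target of the eIF2 kinases, and rose by 2.79 ± 0.27 (6.93-fold, adjusted p = 0.00067). Untreated cells gave scaled signals of 23470 and 23210 for Eif2s2, against 18980 and 27750 with IFNb for 2 h and 7 h, 61630 and 45580 at TCR 1 h without and with IFNb, and 147000 and 161300 at TCR 6 h without and with IFNb. That beta subunit gene rose by 2.72 ± 0.28 (adjusted p = 0.00079), and on both genes the 6 h arrays stood above the 1 h arrays, which stood above the rest. The gamma subunit has an X-linked and a Y-linked gene in mice. Eif2s3x rose by 1.78 ± 0.25, but its 4 tested probes differ: 2 rose (1.78 and 2.26) and 2 did not pass (0.41 and 0.97). Eif2s3y had a scaled signal of 8911 and 8506 on the untreated arrays, 18060 and 17800 after IFNb for 2 h and 7 h, 11520 after 1 h of TCR stimulation (9046 with IFNb) and 8520 after 6 h (7926 with IFNb). It was highest on the arrays with IFNb alone, and its TCR 6 h change of -0.73 ± 0.37 did not pass (adjusted p = 0.16). Eif2a, a tRNA carrier that acts apart from eIF2, rose by 1.42 ± 0.22; the mean of all its probes gave 0.86, which did not pass (adjusted p = 0.081).

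Of the 5 subunits of eIF2B, the nucleotide exchange factor of eIF2, 3 rose. The scaled signal of Eif2b5 was 4954 and 4903 in untreated cells, 3333 at 2 h and 3946 at 7 h of IFNb alone, 5939 without and 5087 with IFNb at 1 h of TCR stimulation, and 16050 without and 17120 with IFNb at 6 h. This catalytic subunit gene rose by 2.01 ± 0.25 (4.03-fold, adjusted p = 0.0014). For Eif2b1 the untreated arrays read 8041 and 7925 (scaled signal), the IFNb arrays 5752 (2 h) and 6278 (7 h), the TCR 1 h arrays 7701 and, with IFNb, 7483, and the TCR 6 h arrays 23370 and, with IFNb, 27220. Eif2b1, the alpha subunit that senses phosphorylated eIF2, rose by 1.92 ± 0.25, and on both genes the 6 h arrays were clear of the other 6. Eif2b4, a regulatory subunit gene, had scaled signals of 7144 and 7173 untreated, 3765 and 4108 at TCR 1 h, 9068 and 9430 at TCR 6 h. It was lower at 1 h than on any array without TCR, and neither its 1 h change (-0.83 ± 0.22, adjusted p = 0.092) nor its 6 h change (0.41 ± 0.22, adjusted p = 0.18) passed, while the difference of 6 h over 1 h did (1.23 ± 0.24, adjusted p = 0.012, and 0.056 to 0.077 without any one of the 4 TCR arrays). Eif2b2 changed by 0.51 ± 0.25 and did not pass (adjusted p = 0.15). Eif2b3 was the dimmest member, at 41 to 62.4 on the arrays without TCR 6 h and 180 and 90.9 on the TCR 6 h arrays. Its rise of 1.11 ± 0.33 rests on the first of these: without that array it was 0.60 (adjusted p = 0.22), and it also lost the call without IFNb 2 h (adjusted p = 0.082) or IFNb 7 h (adjusted p = 0.062).

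The 13 genes of eIF3, the large scaffold that holds the small subunit, mRNA and eIF4G together, moved in a graded way: 11 rose, 0 fell and the median was 1.67. Untreated cells gave scaled signals of 7958 and 7929 for Eif3j, against 5697 and 6644 with IFNb for 2 h and 7 h, 12870 and 9622 at TCR 1 h without and with IFNb, and 42060 and 43170 at TCR 6 h without and with IFNb. Eif3j, a loosely bound subunit, rose by 2.63 ± 0.24 (6.17-fold, adjusted p = 0.0006). Eif3b had a scaled signal of 28460 and 27380 on the untreated arrays, 19250 and 19070 after IFNb for 2 h and 7 h, 48560 after 1 h of TCR stimulation (35850 with IFNb) and 123000 after 6 h (132100 with IFNb). This core subunit gene rose by 2.50 ± 0.25 (adjusted p = 0.00076). Both were lowest on the arrays with IFNb alone and highest on the TCR 6 h arrays. The other core subunit genes followed: Eif3c rose by 2.29 ± 0.25, Eif3g by 2.27 ± 0.26, Eif3i by 1.78 ± 0.25 and Eif3a by 1.75 ± 0.24. Eif3d, which can bind caps itself, rose by 1.67 ± 0.24, Eif3l by 1.55 ± 0.23 and Eif3k by 1.30 ± 0.27 (adjusted p = 0.081 for Eif3k without the array with IFNb and TCR 6 h). Small changes were seen for 4 members. Eif3m rose by 0.87 ± 0.26 and Eif3e by 0.79 ± 0.23, and both lost the call without any one of the 4 arrays with IFNb alone or TCR 6 h (adjusted p from 0.05 to 0.16 for Eif3m and 0.057 to 0.15 for Eif3e). Eif3h changed by 0.57 ± 0.25 (adjusted p = 0.12) and Eif3f by 0.03 ± 0.25 (adjusted p = 0.93). Eif3f read 62560 and 70130 untreated and 79080 and 78060 at TCR 6 h, below the 82740 and 83860 of the arrays with IFNb alone, so its groups overlapped.

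In eIF4F and its partners 8 of 11 genes rose, 1 fell and 2 did not pass, with unlike values among paralogs. The brightest probe of Eif4e, the gene of the cap-binding protein, lies at chr3:138219236-138219295 (mm9, plus strand). The scaled signal of Eif4e was 11410 and 10970 in untreated cells, 7663 at 2 h and 10160 at 7 h of IFNb alone, 26220 without and 16940 with IFNb at 1 h of TCR stimulation, and 78490 without and 85010 with IFNb at 6 h. Eif4e rose by 3.05 ± 0.28 (8.27-fold, adjusted p = 0.00059), and its second probe by 3.46. Eif4e2, a cap-binding relative that represses translation, rose by 1.23 ± 0.30 (adjusted p = 0.018; 0.18 without the array with IFNb and TCR 6 h and 0.055 without IFNb 2 h). Eif4e3, the gene of another cap-binding protein, was the member that fell; its probe lies at chr6:99575493-99575552 (mm9, minus strand). For Eif4e3 the untreated arrays read 986 and 996 (scaled signal), the IFNb arrays 835 (2 h) and 720 (7 h), the TCR 1 h arrays 713 and, with IFNb, 1703, and the TCR 6 h arrays 155 and, with IFNb, 156. Both TCR 6 h arrays were below the other 6 and the array with IFNb and TCR 1 h was highest. The change was -2.40 ± 0.39 (5.27-fold lower, adjusted p = 0.0039), and the second probe fell by 2.58. Over 21 alternative fits the change of Eif4e3 ran from -2.99 to -1.95 and passed in each; that of Eif4e ran from 2.33 to 3.37 and passed in each.

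The scaffold genes differed in size. Untreated cells gave scaled signals of 11590 and 11680 for Eif4g1, against 9131 and 10150 with IFNb for 2 h and 7 h, 17050 and 11770 at TCR 1 h without and with IFNb, and 39880 and 41410 at TCR 6 h without and with IFNb. Eif4g1 rose by 1.94 ± 0.24 (3.85-fold, adjusted p = 0.0015). Eif4g2, a relative that cannot bind eIF4E, rose by 1.20 ± 0.23 (adjusted p = 0.093 without the array with IFNb and TCR 6 h), and Eif4g3 changed by 0.55 ± 0.24 and did not pass (adjusted p = 0.11). The helicase genes also differed. Eif4a1 had a scaled signal of 44460 and 44710 on the untreated arrays, 26300 and 35160 after IFNb for 2 h and 7 h, 136400 after 1 h of TCR stimulation (55690 with IFNb) and 193300 after 6 h (214800 with IFNb). Eif4a1 rose by 2.47 ± 0.36 (adjusted p = 0.0025), and its TCR 1 h array without IFNb was far above the one with IFNb. The scaled signal of Eif4a2 was 67510 and 64270 in untreated cells, 68280 at 2 h and 72380 at 7 h of IFNb alone, 55100 without and 51620 with IFNb at 1 h of TCR stimulation, and 96300 without and 88040 with IFNb at 6 h. For Eif4a2 the TCR 6 h arrays were the highest and the TCR 1 h arrays the lowest, and the 6 h change of 0.42 ± 0.22 did not pass (adjusted p = 0.17); with quantile normalization it was -0.39 (adjusted p = 0.18). Eif4a3, a helicase of the exon junction complex, rose by 1.52 ± 0.23, and the helicase cofactors Eif4b and Eif4h by 1.62 ± 0.22 and 1.08 ± 0.24 (adjusted p = 0.15 for Eif4h without the array with IFNb and TCR 6 h). The differences between paralogs were not tested.

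**Figure D2:**
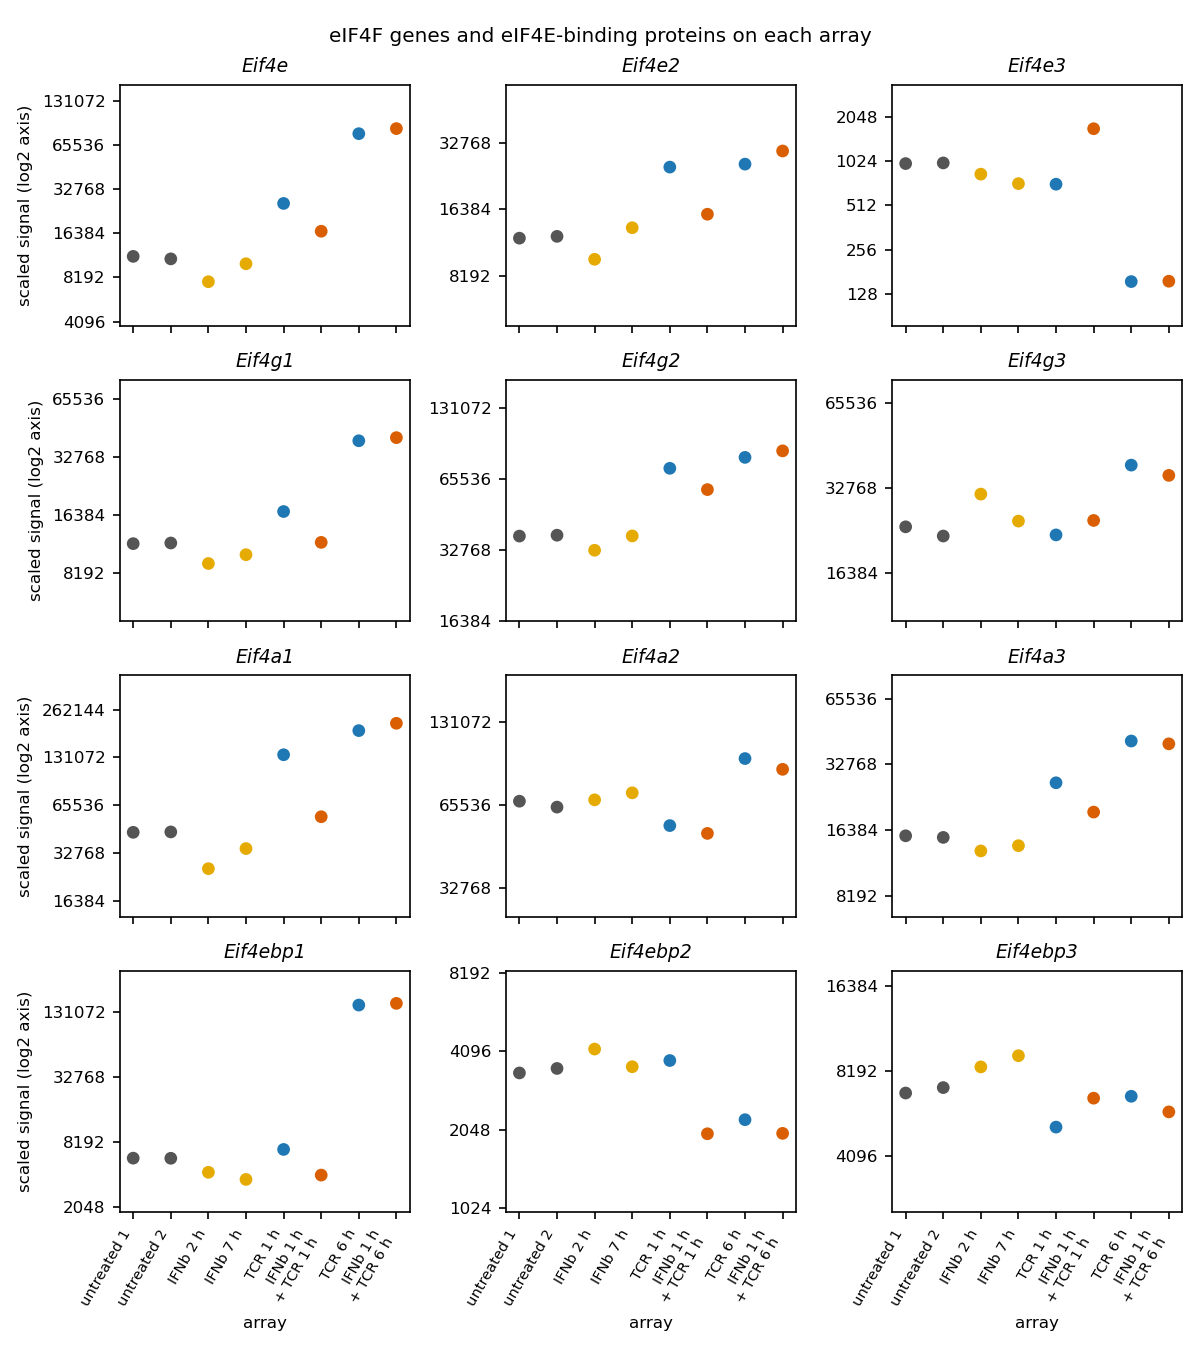
Each panel plots the scaled signal of 1 gene (log2 axis, its own range) on each of the 8 arrays (points; grey untreated, yellow IFNb alone, blue TCR, orange IFNb with TCR). Eif4e, Eif4g1, Eif4a1 and Eif4ebp1 are highest on the TCR 6 h arrays, Eif4e3 is lowest there at 155 and 156, and Eif4a2 stays between 51620 and 96300.

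The eIF4E binders held the largest change of all members. The brightest probe of Eif4ebp1, which encodes the repressor 4E-BP1, lies at chr8:28385887-28385946 (mm9, plus strand). For Eif4ebp1 the untreated arrays read 5844 and 5828 (scaled signal), the IFNb arrays 4328 (2 h) and 3718 (7 h), the TCR 1 h arrays 7032 and, with IFNb, 4077, and the TCR 6 h arrays 151200 and, with IFNb, 156700. Both TCR 6 h arrays were far above every other array, and the TCR 1 h arrays lay on either side of the untreated ones. The TCR 6 h change was 5.01 ± 0.27 (32.2-fold, adjusted p = 0.00034), from 4.42 to 5.33 over 21 alternative fits, and the dimmer second probe rose by 5.35. The genes of the other 4E-BPs did not pass. Untreated cells gave scaled signals of 3384 and 3521 for Eif4ebp2, against 4181 and 3575 with IFNb for 2 h and 7 h, 3777 and 1975 at TCR 1 h without and with IFNb, and 2237 and 1982 at TCR 6 h without and with IFNb. Eif4ebp3 had a scaled signal of 6841 and 7152 on the untreated arrays, 8466 and 9278 after IFNb for 2 h and 7 h, 5180 after 1 h of TCR stimulation (6560 with IFNb) and 6662 after 6 h (5865 with IFNb). The TCR 6 h change was -0.87 ± 0.31 for Eif4ebp2 (adjusted p = 0.063) and -0.36 ± 0.24 for Eif4ebp3 (adjusted p = 0.28), and neither passed, although Eif4ebp2 passed as lower in 6 of 21 alternative fits. The scaled signal of Eif4enif1 was 2031 and 1989 in untreated cells, 1805 at 2 h and 2126 at 7 h of IFNb alone, 1601 without and 2143 with IFNb at 1 h of TCR stimulation, and 8816 without and 8008 with IFNb at 6 h. Eif4enif1 encodes 4E-T, which moves eIF4E to the nucleus and to P-bodies; it rose by 2.10 ± 0.25 (adjusted p = 0.0013) at 2 probes, and another, dim probe at -0.70 did not pass.

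Of the late and other factors 3 of 4 rose. Eif5a encodes the hypusine-bearing factor that helps ribosomes through poor peptide bonds and in termination; its brightest probe lies at chr11:69730729-69730788 (mm9, minus strand). For Eif5a the untreated arrays read 22640 and 22480 (scaled signal), the IFNb arrays 18150 (2 h) and 19650 (7 h), the TCR 1 h arrays 54030 and, with IFNb, 32900, and the TCR 6 h arrays 205000 and, with IFNb, 236700. It rose by 3.42 ± 0.27 (adjusted p = 0.00048), with both 1 h arrays between the unstimulated and the 6 h arrays. Eif5a2, its paralog, changed by 0.66 ± 0.23 and did not pass (adjusted p = 0.055), though its 1686 and 1769 at TCR 6 h were above the 959 to 1386 of the other arrays. Untreated cells gave scaled signals of 17740 and 18020 for Eif6, against 15710 and 19290 with IFNb for 2 h and 7 h, 33110 and 22770 at TCR 1 h without and with IFNb, and 77090 and 83730 at TCR 6 h without and with IFNb. Eif6, which keeps the ribosomal subunits apart and takes part in making the large one, rose by 2.17 ± 0.26 (adjusted p = 0.0013). Eif5b, the GTPase that joins the subunits, rose by 1.80 ± 0.22 (adjusted p = 0.0015). Among the 4 Argonautes 1 rose (25%), near the 22.5% of all genes. Eif2c2 had a scaled signal of 5678 and 5224 on the untreated arrays, 4630 and 4597 after IFNb for 2 h and 7 h, 14450 after 1 h of TCR stimulation (7634 with IFNb) and 16280 after 6 h (14820 with IFNb). Eif2c2 (Ago2), the slicing Argonaute, rose by 1.60 ± 0.27 (adjusted p = 0.0041; 0.057 without the array with IFNb and TCR 6 h). The scaled signal of Eif2c4 was 207 and 248 in untreated cells, 216 at 2 h and 275 at 7 h of IFNb alone, 246 without and 245 with IFNb at 1 h of TCR stimulation, and 371 without and 379 with IFNb at 6 h. The change at this probe of Eif2c4 (Ago4) did not pass (0.66 ± 0.23, adjusted p = 0.059), while 3 dimmer probes of the gene fell (-3.54, -3.10 and -2.25). Eif2c1 (Ago1) changed by -0.36 ± 0.22 and Eif2c3 (Ago3) by 0.05 ± 0.23, and neither passed. Over all members, 36 had several tested probes; at TCR 6 h those of 33 shared a sign, those of 25 shared the call, and 0 had probes called in opposite directions.

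**Figure D3:**
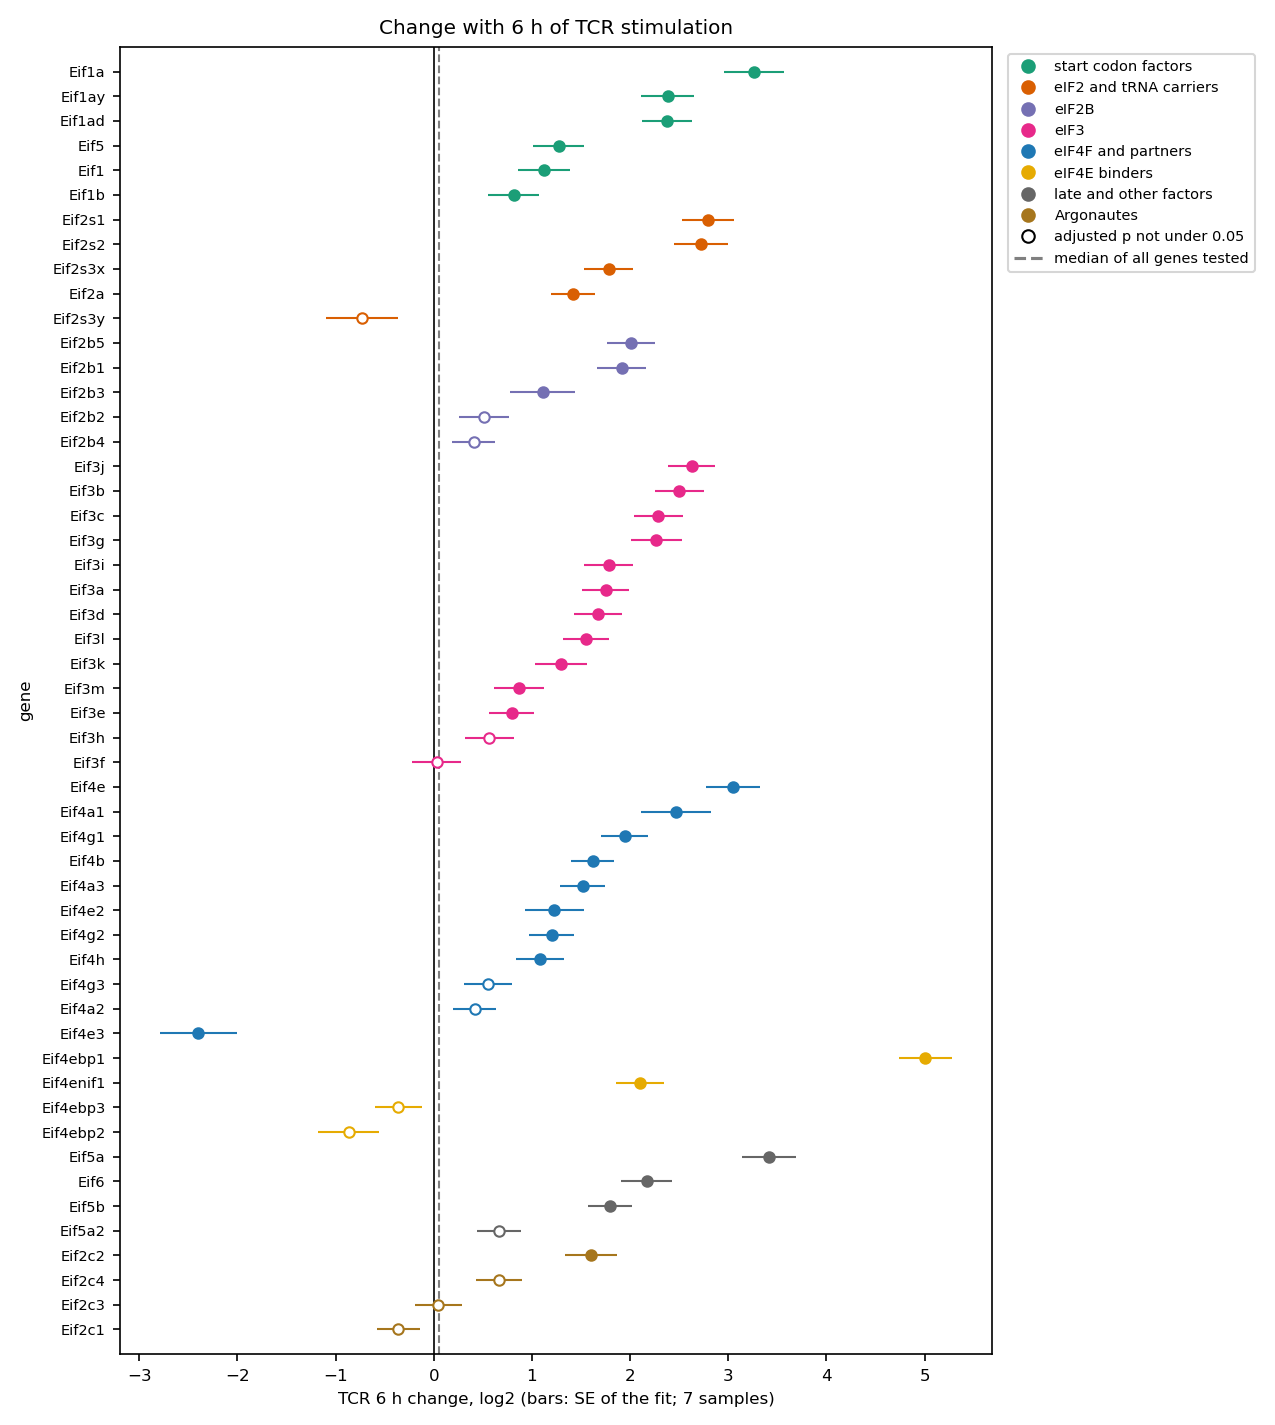
Points give the TCR 6 h change of each of 52 genes on the log2 scale with the SE of the fit over 7 samples, coloured by role; filled points passed the threshold of 0.05, open points did not, and the dashed line is the median of all genes tested (0.06). Eif4ebp1 lies farthest right at 5.01 and Eif4e3 farthest left at -2.40.

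Call stability was uneven over the members. Of the 39 calls at TCR 6 h, 21 (20 higher, and Eif4e3 lower) passed under each of the 21 alternatives run: Eif1a, Eif1ad, Eif1ay, Eif2b5, Eif2s1, Eif2s2, Eif3b, Eif3c, Eif3d, Eif3g, Eif3i, Eif3j, Eif4a1, Eif4e, Eif4e3, Eif4ebp1, Eif4enif1, Eif4g1, Eif5a, Eif5b and Eif6. Leaving out the array with IFNb and TCR 6 h lost 10 calls, among them Eif4e2, Eif4g2 and Eif4h, and leaving out any one of the other treated arrays lost at most 5. Without both arrays with IFNb alone, 18 calls were lost, including those of Eif2s3x (1.45 ± 0.39, adjusted p = 0.06), Eif4b (1.54 ± 0.40, adjusted p = 0.055) and Eif2c2 (1.78 ± 0.46, adjusted p = 0.055).

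After 1 h of TCR stimulation the changes were smaller. The 1 member that passed was Eif1a, which rose by 1.93 ± 0.30 (3.81-fold, adjusted p = 0.029), and 0 fell, so 1.92% of members rose, against 2.59% of 19605 genes; 1.73% of all genes fell. That call was lost without any one of the 4 arrays with IFNb alone or TCR 1 h (adjusted p from 0.065 to 0.14, values 1.49 to 2.47). At an unadjusted p under 0.05, 16 of 52 members passed, against 23.4% of all genes. The members' median was 0.28, against -0.05 for all genes, and 38 of 52 were above 0. The share of all genes above 0 was not counted. Both TCR 1 h arrays lay above the 4 arrays without TCR for 25 members (15.6% of all genes did) and below them for 5 (19.2% of all genes): Eif2b3, Eif2b4, Eif2c1, Eif4a2 and Eif4ebp3. The next largest 1 h changes did not pass: Eif4a1 1.24 ± 0.36 (adjusted p = 0.11), Eif2s2 1.18 ± 0.28 (adjusted p = 0.072), Eif4e 1.09 ± 0.28 (adjusted p = 0.082), Eif2c2 1.04 ± 0.27 (adjusted p = 0.085), Eif5a 1.03 ± 0.27 (adjusted p = 0.092) and Eif1 0.98 ± 0.27 (adjusted p = 0.095). With the untreated arrays as 2 separate samples, 11 members rose and 2 fell at 1 h (6.29% and 6.43% of all genes), and with a filter for background on all 8 arrays 5 rose (5.32% of all genes).

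Between 1 h and 6 h of TCR stimulation, 31 of 52 members rose (59.6%, against 16.6% of 19603 genes), 1 fell (15.5% of all genes fell) and 20 did not pass. The median difference of 6 h over 1 h was 1.22, against 0.08 for all genes. With the mean of all probes of a gene the members' median was 0.865, with 26 higher and 2 lower (15.8% and 15.2% of all genes). The 1 h and 6 h effects share their untreated and IFNb arrays, so their values are given side by side only. Eif4ebp1 changed by 0.16 ± 0.27 at 1 h and then differed by 4.85 ± 0.29 between the times (adjusted p = 0.0014), and Eif4enif1 by -0.08 ± 0.25 and then 2.18 ± 0.27 (adjusted p = 0.0032). The other large differences of 6 h over 1 h were those of Eif5a (2.39 ± 0.30), Eif1ad (2.09 ± 0.28), Eif4e (1.96 ± 0.30) and Eif3j (1.94 ± 0.26). Eif4e3 fell between the times, by 2.83 ± 0.43 (adjusted p = 0.0053). Eif1 differed by 0.14 ± 0.29 (adjusted p = 0.74), and Eif4g2 (0.35 ± 0.25), Eif4e2 (0.50 ± 0.33) and Eif2c2 (0.56 ± 0.29) did not pass either. Each time lies on its own slide apart from the untreated arrays, 1 on each slide; with the slide as a block 18 members rose and 1 fell (7.92% and 6.43% of all genes). Without the array with IFNb and TCR 1 h 12 rose and 1 fell (7.08% and 7.29% of all genes), and without the one with IFNb and TCR 6 h 13 rose and 1 fell (7.31% and 7.85% of all genes).

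**Figure D4:**
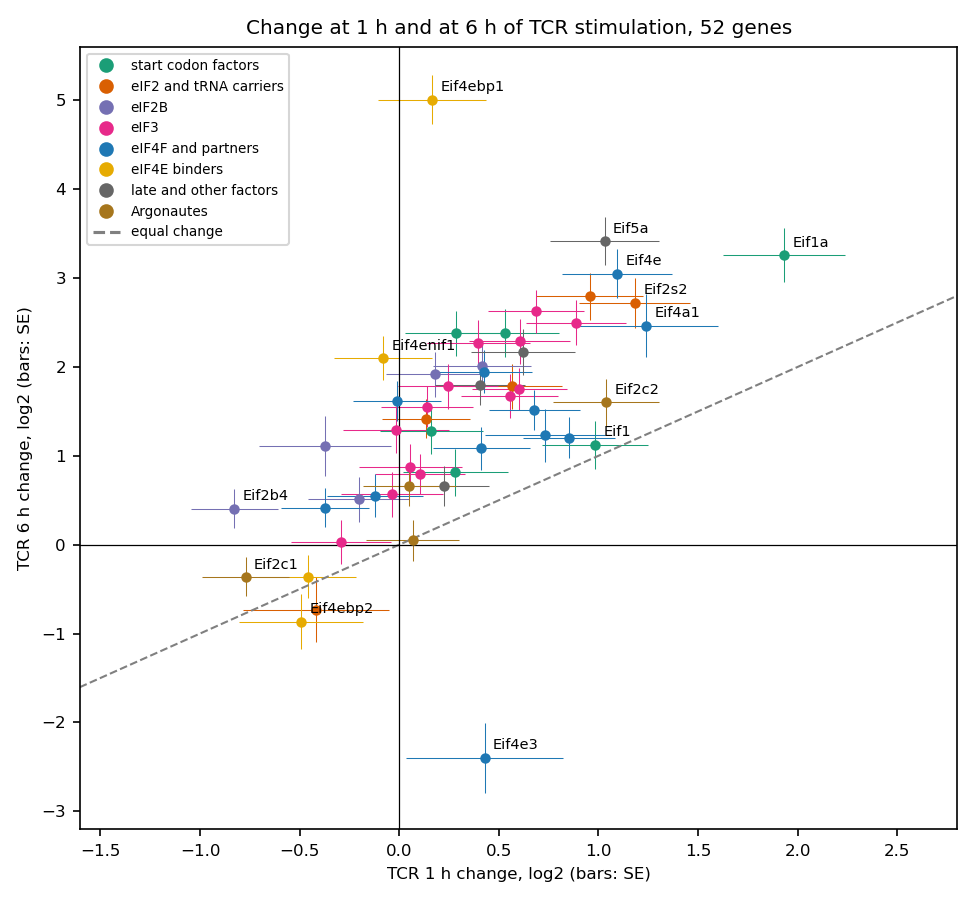
Each point is 1 of 52 genes, with the TCR 1 h change on the x axis and the TCR 6 h change on the y axis (log2, bars are SEs of the fit over 7 samples, colour gives the role); the dashed line marks equal change. Most points lie above the line, Eif4ebp1 is near 0 at 1 h and at 5.01 at 6 h, and Eif4e3 is at 0.43 and -2.40.

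No initiation factor passed the test for IFNb. In the fit over all 7 samples 0 of 52 members passed in limma, with a lowest adjusted p of 0.66, against 0.0663% of 19608 genes (13, all higher). The same fit called 1 of 8 treatment check genes, which include the interferon-induced Ifit1, Isg15, Irf7 and Mx1. Mx1 read 94.9 and 92.5 in untreated cells and 23100 and 72860 with IFNb for 2 h and 7 h. A count of 0 members therefore does not show that IFNb left them unchanged. At an unadjusted p under 0.05, 0 members and 8.61% of all genes passed. The members' median IFNb effect was -0.14 (40 of 52 below 0), against -0.004 for all genes, and it turned to 0.10 with normexp background correction and to 0.007 on slide 2 alone. The share of all genes below 0 in the main fit was not counted. The largest effect among named members was that of Eif4a1, -0.56 ± 0.30 (adjusted p = 0.67); Eif4ebp1 was at -0.44 ± 0.23 and Eif4b at -0.35 ± 0.19. Single arrays gave the same members different values by time. After IFNb for 2 h, 38 of 52 members were below untreated (73.1%, against 45.1% of all genes, medians -0.19 and 0.07). After 7 h 26 of 52 were (50%, against 42.4% of all genes, medians 0.002 and 0.12). Eif2s3y was the 1 member at least 2-fold from untreated, higher by 1.05 (log2) at 2 h and 1.03 at 7 h, against 15.2% and 17.7% of all genes. With IFNb for 2 h and 7 h, the Y-linked Ddx3y read 11530 and 15020, against 11000 and 9583 untreated. Kdm5d read 2651 and 3866, against 2508 and 2971, and Uty 161 and 236.5, against 136 and 150. Xist was not above background on those 2 arrays, and any link to the Eif2s3y values was not tested. These differences have no replicate check.

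Each TCR pair compares 1 array with 1 other. With the scaling used, members were mostly lower on the array with IFNb at 1 h, with no such tilt at 6 h. At TCR 1 h, 45 of 52 members were lower on the array named as IFNb with TCR than on the one with TCR alone (86.5%, median difference -0.42), against 56.7% of all genes (median -0.10). At TCR 6 h, 21 of 52 were lower with IFNb (40.4%, against 48.3% of all genes; median 0.03, all genes 0.01). At least 2-fold differences were seen at 1 h for Eif4a1, at -1.29 on the log2 scale, and Eif4e3, at 1.26 (15.7% of all genes), and for 0 members at 6 h (5.54% of all genes). The interaction fit, which asks whether the IFNb difference within a TCR pair departs from that without TCR, has 1 residual degree of freedom: 0 of 52 members passed at 1 h and 0 at 6 h (0% of 19515 and 0% of 19557 genes), with a lowest adjusted p of 0.63 and 0.66. At an unadjusted p under 0.05 there were 2 members at 1 h, Eif2s3y (-1.39 ± 0.46) and Eif4e3 (1.61 ± 0.48), against 7.58% of all genes, and 0 at 6 h, against 8.1% of all genes. The interaction fit sets each TCR pair against the mean of IFNb 2 h and 7 h, not against its matched time alone. The members' median 1 h interaction was -0.27 (all genes -0.16), but 0.01 with quantile normalization (-0.02) and 0.68 with normexp background correction (-0.98). Eif2s3y differed by -0.35 within the TCR 1 h pair and was 1.05 and 1.03 above untreated on the arrays with IFNb alone. The part of those 2 arrays' other differences in its interaction was not tested. The untreated arrays differed by an SD of 0.08 over the members (0.36 over all genes), but that pair does not measure the spread between separately treated cultures.

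**Figure D5:**
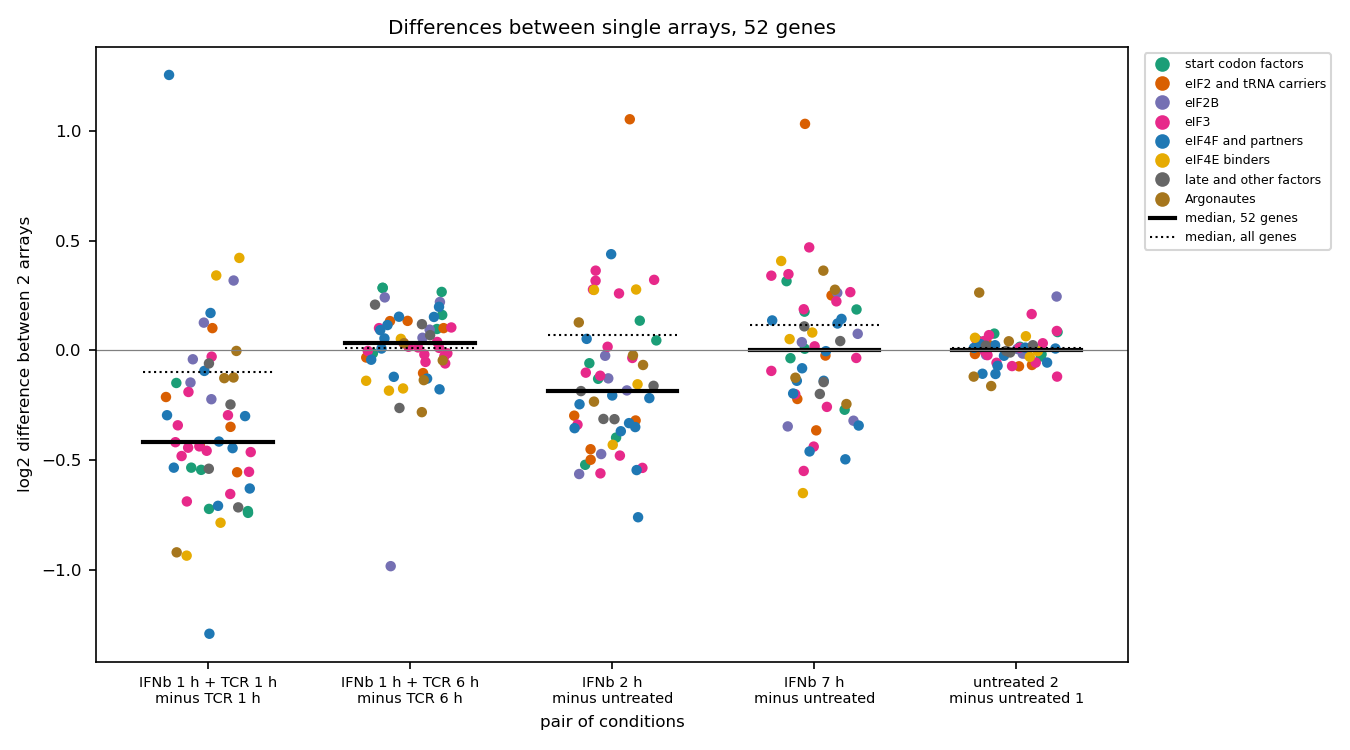
Points give the log2 difference between 2 single arrays (or 1 array and the mean of the untreated arrays) for each of 52 genes, for the 5 pairs of conditions on the x axis; thick lines are medians of the 52 genes and dotted lines medians of all genes. The median of the members is -0.42 in the TCR 1 h pair, whose 2 arrays are named as in the value table, and 0.03 in the TCR 6 h pair.

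Other genes of protein synthesis were read from 4 lists. Of the elongation and termination genes, 11 of 16 tested rose at TCR 6 h and 0 fell (median 1.45), led by Eef1e1, a part of the tRNA synthetase complex (4.30 ± 0.27), and the release factor gene Etf1 (3.06 ± 0.31). Eef1a2 was not above background on any array. Of 6 poly(A) binding genes, 3 rose and 1 fell: Pabpc4 rose by 2.49 ± 0.29, Pabpn1 by 2.13 ± 0.45 and the repressor gene Paip2 fell by 0.96 ± 0.24. Of 10 genes around eIF2 phosphorylation (4 kinases, 2 phosphatase subunits, the kinase regulators Gcn1l1 and Impact, and the downstream factors Atf4 and Ddit3), 5 rose and 1 fell. Ppp1r15a, the inducible subunit of the eIF2 phosphatase, rose by 3.08 ± 0.35, Atf4, whose translation depends on eIF2 phosphorylation, by 3.02 ± 0.34, and the kinase gene Eif2ak2 (PKR) fell by 2.12 ± 0.67 (adjusted p = 0.043). Eif2ak2 read 490 and 459 untreated, 6531 and 17550 with IFNb alone, 536 at TCR 1 h and 31220 with IFNb, and 181 and 1494 at TCR 6 h without and with IFNb. It is an interferon-induced gene and was higher with IFNb at each matched time. The additive fit gives all 4 IFNb arrays 1 IFNb effect, while Eif2ak2 with IFNb and TCR 6 h lay above untreated. The kinase gene Eif2ak3 (PERK) read 10190 and 11650 untreated, 2027 and 2120 with IFNb alone, and 4275 and 3563 at TCR 1 h without and with IFNb. Eif2ak3 was lowest at TCR 6 h, at 1143 and 1308 without and with IFNb, but did not pass. Among 19 genes of mTORC1 and MNK control of eIF4F, 4 rose and 6 fell. The genes of the mTORC1 inhibitors moved in both directions: Sesn2 rose by 4.63 ± 0.35 and Ddit4 by 3.71 ± 0.39, while Sesn1 fell by 3.51 ± 0.29; Pdcd4, an inhibitor of eIF4A, fell by 3.88 ± 0.33. Each list is set against 22.5% of all genes higher and 22.6% lower at TCR 6 h, and no list was tested as a set.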

How the data were processed

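RNA of 8 samples was hybridised to single-colour Agilent 44k mouse arrays, 4 on each of 2 slides. The deposited scanner files hold spot intensity (gProcessedSignal, background-subtracted by Agilent Feature Extraction 10.7.3.1 per the file headers, and 9.5.3.1 per the submitters' processing notes). The deposited value table holds these intensities rescaled per array, with a factor of 1.21 to 1.86. No other change beyond rounding was seen among the spots compared, which were non-control spots above each column's lowest value. The value table's 2 columns for 1 h TCR match each other's scanner file, and its naming was used.

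Intensities of spots without outlier flags were taken as log2, set against each array's 75th percentile and averaged over the spots of a probe. The brightest probe stood for a gene, and genes whose brightest probe was well above background on at least 2 arrays were kept. The 2 untreated arrays were averaged, and limma 3.58.1 in R 4.3.3 fitted IFNb, TCR 1 h and TCR 6 h over 7 samples (3 residual degrees of freedom), or these with both interactions. P-values were two-sided and adjusted by Benjamini-Hochberg over all genes tested. With 1 array per treated condition, p-values of the additive fit measure the departure from additivity and the difference between IFNb 2 h and 7 h. In the interaction fit IFNb 2 h and 7 h share 1 mean. Its 1 residual degree of freedom is the difference between those 2 arrays, which lie on different slides. Neither fit measures the spread between cultures or animals. Fits were run on simulated data with additive effects and independent noise, which cannot show how they behave where effects are not additive. Named members were those with the largest TCR 6 h change per role group, the largest called changes per comparison (up to 5 in each direction) and 11 members always given; list genes were the 2 largest called changes in each direction. The members and lists were chosen with earlier results of these data known. Probe coordinates are those of the array annotation (mm9); promoter windows are from RefSeq (GRCm38.p6). Figures were drawn with matplotlib.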

Additional observations from a re-analysis of the deposited data

How the results depend on the processing

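Calls moved far more for IFNb and TCR 1 h than for TCR 6 h. Of all genes, 13 (IFNb), 846 (TCR 1 h), 8835 (TCR 6 h) and 6295 (6 h against 1 h) were called, and of members 0, 1, 39 and 32. For IFNb, genes called were 78 among genes above background on all 8 arrays, 21 from the deposited value table, 46 with scaling to the median, 52 with the slide as a block, 89 with the untreated arrays as 2 samples, 271 on slide 1 alone, and 0 with the scanner files' naming, normexp, quantile normalization, slide 2 alone or without the 2 arrays with 1 h TCR; members stayed at 0. For TCR 1 h they were 1649 (5 members) above background on all 8 arrays, 2495 (13 members) with the untreated arrays as 2 samples, 361 with the scanner files' naming, 537 with no filter, 417 (0 members) on slide 1 alone and 22 (0 members) with normexp; 3 members passed with the mean of all probes. For TCR 6 h, normexp called 3417 genes, and for 6 h against 1 h 1999, where the slide as a block called 2813 (19 members). Interactions called 0 genes, except 85 at 1 h under the scanner files' naming and, with normexp, 10590 (6 members) at 1 h and 23 at 6 h. Normexp moved the median of all genes to 0.49 at TCR 1 h and -0.78 for 6 h against 1 h. The share of higher genes among calls for 6 h against 1 h was 51.7%, and 65.2% with median scaling or 64.2% with normexp; at TCR 6 h it was 59.3% with normexp. Without the 2 arrays with IFNb alone, an alternative chosen after seeing the data, IFNb and TCR 1 h called 0 genes and 0 members, and TCR 6 h 4050 genes and 21 members.

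Leaving out 1 array at a time gave 0 to 274 genes for IFNb (0 members), 38 to 818 for TCR 1 h (0 to 1 members), 4682 to 8796 for TCR 6 h (29 to 40 members), 2812 to 6291 for 6 h against 1 h (13 to 32 members) and 0 to 0 for the interactions. A lone array of a condition was assumed to vary like the others. Turned direction: Eif3e at TCR 6 h with quantile normalization (-0.00032, adjusted p = 1) and Eif2b3 for 6 h against 1 h with normexp (-0.65, adjusted p = 0.53). The cause was not tested. Of single member values, besides these, 70 lost, 8 gained and 803 kept their side of the threshold at TCR 6 h, and 104 lost and 6 gained it for 6 h against 1 h. Interactions could not be fitted on 1 slide or without an array of the tested pair. No paired analysis was possible because only the untreated group has replicate numbers; the slide was fitted as a block instead. Depth of sequencing has no counterpart here: 8 arrays limit the precision, and the dimmest member values are those of Eif2b3, of Eif4e3 at TCR 6 h and of Eif2c4.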
